A study of Drosophila melanogaster with 4 samples.

Results

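The regions described here are the H4K20me1-enriched regions along the X chromosome of Drosophila melanogaster. They are the X regions of the series-wide list whose end lay at least 2 Mb from the end of X, which leaves out the sequence next to the centromere. With X at 22422827 bp on FlyBase release 5, the last end allowed was 20422827, and 983 of the 5318 series-wide regions met the rule. The nearest region inside the limit ran from 20392210 to 20396090 (3881 bp) and the nearest outside it from 20528540 to 20532726 (4187 bp). The rule uses position alone and no measured value. Chromatin came from wild-type Oregon-R-modENCODE larvae at the third instar, was crosslinked with formaldehyde and was immunoprecipitated with a single lot of an H4K20me1 antibody. There were 2 ChIP replicates, each with its own input sample, and no other genotype, treatment or stage. The labels give neither the sex of the larvae nor the collections of animals behind each replicate, so the spread between replicates may be technical.

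H4K20me1 is histone H4 carrying a single methyl group on lysine 20. In Drosophila it is set by PR-Set7, whose loss disturbs the cell cycle and chromosome condensation, and it can be carried further to the di- and trimethylated states by other methyltransferases. The X chromosome is singled out in many animals because males carry a single copy. Drosophila males raise transcription of their X through the MSL complex and acetylation of H4 at lysine 16, whereas in the nematode Caenorhabditis elegans H4K20me1 is enriched on the dosage-compensated X chromosomes of hermaphrodites.

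The same filter left 1027 of 6478 regions in replicate 1 and 949 of 5209 in replicate 2. The shortest region was 1001 bp long on the series-wide list and 1301 bp on the replicate lists, so the lists do not share a length minimum. A score accompanies each region and is the authors' own; its values behave as the log2 of a scaled ratio with an unknown offset, and it is used only to describe regions within a list. The lists hold no read counts, so read depth is unknown, and genes are not named because the gene table at hand is of another genome release.

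Most H4K20me1 regions on X were a few kilobases long, and a minority of long ones held much of the enriched sequence. Replicate 1 enriched 4.73 Mb of the 20.4 Mb analysed and replicate 2 enriched 4.33 Mb, which is 23.2% and 21.2% of the length (mean 22.2% ± 1.37, SD, n = 2). The median region was 2595 bp in replicate 1 and 2797 bp in replicate 2 (mean 2696 ± 143 bp, SD, n = 2), and 2975 bp on the series-wide list. On that list 25% of the regions were no longer than 1715 bp and 10% were longer than 12457 bp.

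Regions of 10 kb or more made up 136 of the 983 series-wide X regions, or 13.8%, where 16.6% of all series-wide regions were that long. They held 47.6% of the enriched X bases. Replicate 1 had 96 such regions on X (9.35% of its X regions, against 10.8% over its whole list) and replicate 2 had 87 (9.17%, against 12.6%). They held 38.0% and 35.0% of the enriched X bases of those lists. Regions of 20 kb or more numbered 39 on the series-wide list, 28 in replicate 1 and 18 in replicate 2, and regions of 50 kb or more numbered 4, 2 and 2. The size class from 2 to 5 kb held the largest share of the enriched X bases in each replicate list, 27.5% in replicate 1 and 32.0% in replicate 2. On the series-wide list it held 20.7%, and the class from 10 to 20 kb held the largest share, 25.1%.

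**Figure D1:**
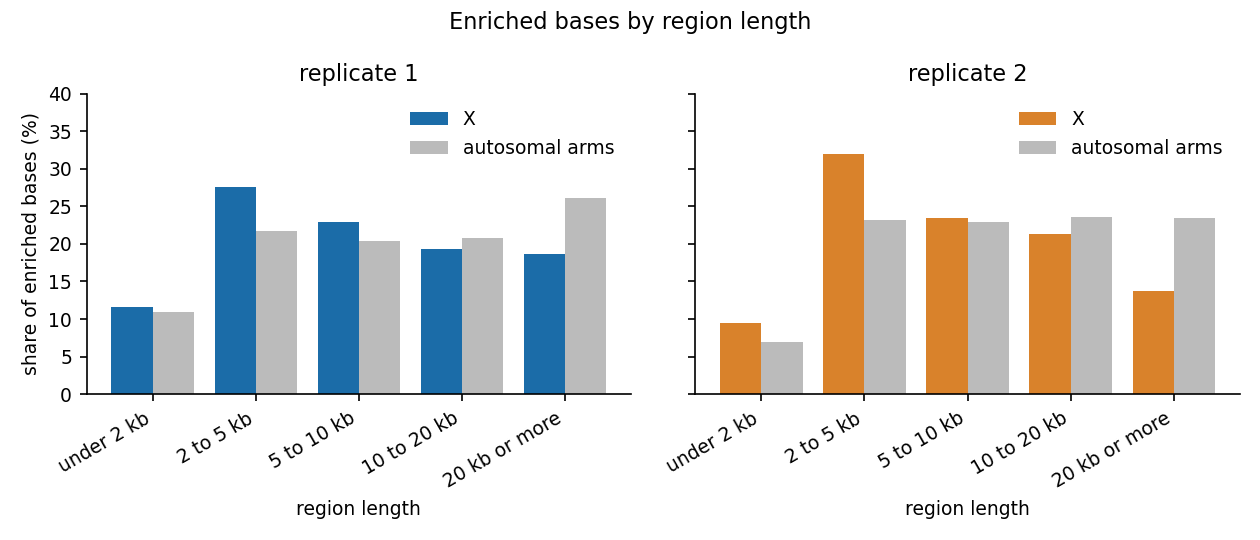
Share of enriched bases (percent, vertical axis) held by regions of each length class (horizontal axis), for X and for the 4 autosomal arms together, in replicate 1 (left) and replicate 2 (right). On X the class from 2 to 5 kb holds the most bases, at 27.5% and 32.0%, while regions of 20 kb or more hold 18.7% and 13.7% there and 26.1% and 23.4% of the bases of the autosomal arms.

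Along X the mark was present from the telomere end to the limit, with a low stretch well before the middle and a high one just past the middle. The length analysed was cut into 10 equal bins of 2.04 Mb, numbered from the telomere end. Bin 3, from 4.08 to 6.13 Mb, was covered over 14.6% in replicate 1 and 12.6% in replicate 2. Bin 6, from 10.2 to 12.3 Mb, was covered over 30.5% and 27.3% and also held the most regions of 10 kb or more, 22 on the series-wide list against 7 in bin 3. Both outermost bins were well covered. Bin 1, at the telomere end, had 24.6% and 28.2% in replicates 1 and 2, and bin 10, next to the limit, had 24.6% and 27.8%.

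The replicates did not differ evenly along X. Replicate 2 was higher in bins 1, 2 and 10, where replicate 1 minus replicate 2 was -3.52, -0.65 and -3.24 percentage points, and replicate 1 was higher in the other 7. The widest differences were in bins 7 and 8, from 12.3 to 16.3 Mb, at 6.62 and 6.51 points. Over the 20 full windows of 1 Mb, Spearman's rho between the replicates was 0.77 as a description across windows of the same 2 libraries.

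**Figure D2:**
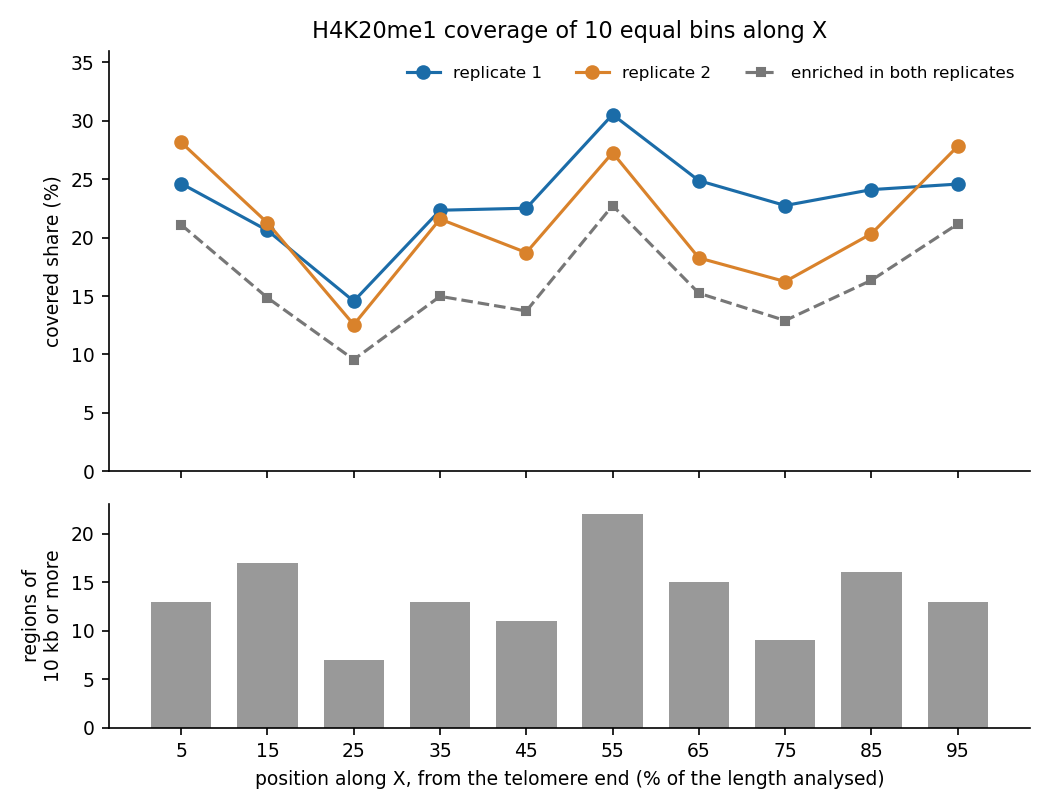
Upper panel, share of bases enriched (percent) in 10 equal bins of X, plotted against position from the telomere end as a percentage of the length analysed, for replicate 1, replicate 2 and the bases enriched in both. Lower panel, number of series-wide regions of 10 kb or more in the same bins; bin 3 is lowest in both panels, at 14.6% and 12.6% covered with 7 such regions, and bin 6 is highest in the number of long regions, with 22.

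Windows of 1 Mb varied more than these bins. The most covered ran from 1 to 2 Mb, with 32.6% in replicate 1 and 39.6% in replicate 2 (mean 36.1% ± 4.98, SD, n = 2), and it held 11 series-wide regions of 10 kb or more. Next were the windows from 19 to 20 Mb, at 29.8% and 33.7%, and from 11 to 12 Mb, at 33.3% and 30.0%. The least covered ran from 14 to 15 Mb, at 11.0% and 6.70% (mean 8.83% ± 3.01). The median window had 23.0%. A well covered megabase could border a poorly covered one: the window from 1 to 2 Mb lies beside the first megabase of X, at 15.4% and 15.2%. Across neighbouring windows Spearman's rho of the covered share was -0.10. Covered share went with the number of series-wide regions of 10 kb or more in a window (rho 0.80) and less with the number of all regions (rho 0.61), again as descriptions over 20 windows, since long regions contribute to coverage by their length.

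The centromere-side 50% of the length analysed was more covered than the telomere-side 50% in both replicates, by amounts that differed between them. The telomere side was covered over 20.9% in replicate 1 and 20.5% in replicate 2, and the centromere side over 25.4% and 22.0%. The difference was 4.44 points in replicate 1 and 1.53 in replicate 2 (mean 2.99 ± 2.06, SD, n = 2). It turned to -0.71 points when all of X was used, where the 2 Mb next to the centromere were covered over 7.69% and 5.11%. With 3 equal parts, the outermost parts differed by 2.76 points in replicate 1 and by -0.90 in replicate 2, so the direction was not shared.

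Short gaps between regions and long empty stretches occurred both on X and on the autosomal arms. The median gap between neighbouring regions was 3062.5 bp in replicate 1 and 3323 bp in replicate 2 (mean 3193 ± 184 bp, SD, n = 2), and 2611 bp on the series-wide list. Of the 982 series-wide gaps, 314 (32.0%) were under 1 kb and 56 (5.70%) under 100 bp, where the autosomal arms had 32.4% and 5.94%. At the other end, 41 gaps of 100 kb or more (4.18%) took up 31.3% of the length analysed, where such gaps were 4.10% of those on the autosomal arms and took up 29.1% of their length. The replicate lists differed more, with 30.8% of X against 24.2% of the autosomal arms in replicate 1 and 35.1% against 31.0% in replicate 2. The nearer neighbour of a series-wide region lay a median 903 bp away and the farther one 7213 bp. Lengths of neighbouring regions were at most weakly related (Spearman's rho 0.15, 0.11 and 0.07 on the series-wide list, replicate 1 and replicate 2).

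When series-wide regions with gaps under 1 kb were chained, 505 of the 983 fell into 191 chains and 478 stood alone. The longest chain ran from 12097754 to 12182092 and joined 6 regions over 84.3 kb, of which 96.6% was enriched on the series-wide list. Replicate 1 split the same stretch into 11 regions covering 72.9% of it and replicate 2 into 14 regions covering 64.0%. The chain with the most regions ran from 9332186 to 9390142, with 10 regions over 58.0 kb, and was enriched over 67.3% in replicate 1 and 54.1% in replicate 2. The other 3 of the 5 longest chains each joined 2 regions over 49.9 to 62.0 kb and were covered over 86.9 to 97.1% in replicate 1 and 93.3 to 100.0% in replicate 2. On the series-wide list these 5 chains were thus enriched over 93.1 to 99.9% of their length. In the replicates they ranged from nearly solid domains to stretches broken into many regions. Chaining raised the number of series-wide stretches of 20 kb or more from 39 to 65.

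Long regions were spread over the whole of X. The centres of neighbouring series-wide regions of 10 kb or more were a median 85.2 kb apart (interquartile range 39.8 to 186 kb), and 44 of the 135 spacings were under 50 kb. The longest stretch with no such region ran from 13879175 to 14734365, over 855 kb, and includes much of the least covered window. For the 39 regions of 20 kb or more the median spacing was 439 kb, and the longest stretch without one was 1954 kb, from 5017431 to 6971313. They were split evenly, with 19 in the telomere-side 50% and 20 in the other, while regions of 10 kb or more numbered 61 and 75.

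Bases in none of the 3 lists made up 70.2% of the length analysed. Stretches of 100 kb or more without a region in any list numbered 35 and took up 26.4% of it. The 5 longest ran from 14143891 to 14474629 (331 kb), 7237589 to 7502511 (265 kb), 19814151 to 20049757 (236 kb), 18031384 to 18260979 (230 kb) and 4599257 to 4804629 (205 kb). The first was part of a gap of 571 kb in replicate 2, from 14137094 to 14708170. The stretch from 19814151 starts in the megabase that holds the longest H4K20me1 region of X. Such stretches numbered 1.71 per Mb on X and 0.89 to 1.74 per Mb on the autosomal arms. How much of them could hold placed reads was not tested.

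Replicate support rose steeply with length. Of the 983 series-wide regions, 551 overlapped a region of both replicates by at least 1 bp (56.1%, exact Clopper-Pearson 95% interval 52.9 to 59.2%), where 61.5% of all series-wide regions did so. A further 175 overlapped replicate 1 alone, 157 replicate 2 alone and 100 neither (10.2%, where 8.25% of all series-wide regions overlapped neither). The 551 held 85.1% of the enriched bases, with medians of 5577 bp for the length and 0.70 for the score. The 100 without support held 2.56%, with medians of 1202 bp and 0.42. These intervals cover counting error only, and the series-wide list was made from the same libraries, so support is not independent of membership.

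Every series-wide X region of 10 kb or more overlapped both replicates, 136 of 136, and 125 of them were covered over at least 50% by each. Nearly all long autosomal regions did so too, 431 of 433 from 10 to 20 kb and 267 of 267 at 20 kb or more. Of these, 410 and 262 were covered over at least 50% by each replicate (94.7% and 98.1%), where X had 89.7% and 97.4%. An overlap of 1 bp is easier to reach for a longer region, and the share expected from placement alone was not tested. Between 5 and 10 kb 168 of 176 overlapped both (95.5%, 91.2 to 98.0%), and between 2 and 5 kb 234 of 345 did (67.8%, 62.6 to 72.7%). Under 2 kb 13 of 326 did (3.99%, 2.14 to 6.72%). Of those 326, 135 were shorter than the shortest region of either replicate list, and 1 of the 135 overlapped both replicates. On the autosomal arms 126 of 1129 regions under 2 kb overlapped both (11.2%, 9.38 to 13.1%) and 997 of 1352 between 2 and 5 kb did (73.7%, 71.3 to 76.1%). Between 5 and 10 kb 656 of 677 autosomal regions did (96.9%, 95.3 to 98.1%). Short X regions thus had the lower share of support under 2 kb and from 2 to 5 kb. The intervals count regions of the same 2 libraries, so whether they meet does not test X against the autosomal arms.

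**Figure D3:**
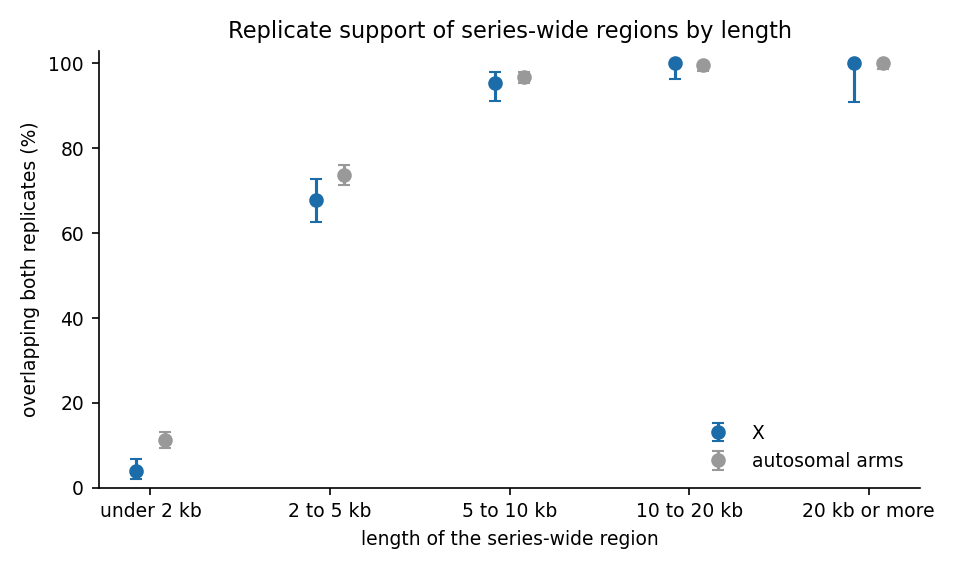
Share of series-wide regions that overlap a region of both replicates (percent, vertical axis) by region length (horizontal axis), for X and for the autosomal arms. Bars are exact 95% intervals for counting error; support is 3.99% on X and 11.2% on the autosomal arms under 2 kb, and 100% on both at 20 kb or more.

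Counted from the replicate lists, 719 of the 1027 X regions of replicate 1 were found in replicate 2 (70.0%, 67.1 to 72.8%, where 66.4% of its whole list was found), and 736 of the 949 of replicate 2 were found in replicate 1 (77.6%, 74.8 to 80.2%, where 82.9% was). On the autosomal arms the shares were 72.7% and 83.7%. The bases enriched in both replicates came to 3.32 Mb of the 5.74 Mb enriched in either, a Jaccard index of 57.9%, and the index was 64.1 to 68.2% on the 4 autosomal arms. It was highest in the outermost bins of X, at 66.6% in bin 1 and 67.8% in bin 10, and lowest in bin 8, at 49.5%. Bin 6, near the middle, had 64.9%, while bins 2 and 9, next to the outermost bins, had 54.9% and 58.2%. Bins 1, 6 and 10 were also the most covered bins.

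Edges could be compared for regions that matched one to one. On X 339 of the 1027 regions of replicate 1 overlapped exactly 1 region of replicate 2 that overlapped no other, and their edges differed by a median of 538.5 bp, with 47.3% of the edges within 500 bp. On the autosomal arms the median was 463 bp over 1496 such pairs. Long regions were often broken into pieces in the replicates. Of the 39 series-wide X regions of 20 kb or more, 17 were met by a single region of replicate 1, 12 by a single region of replicate 2, and 8 by a single region of each. A further 13 were single in exactly 1 replicate and 18 were in several pieces in both, with at most 6 pieces in replicate 1 and 7 in replicate 2. The median share of their length enriched in both replicates was 90.1%.

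**Figure D4:**
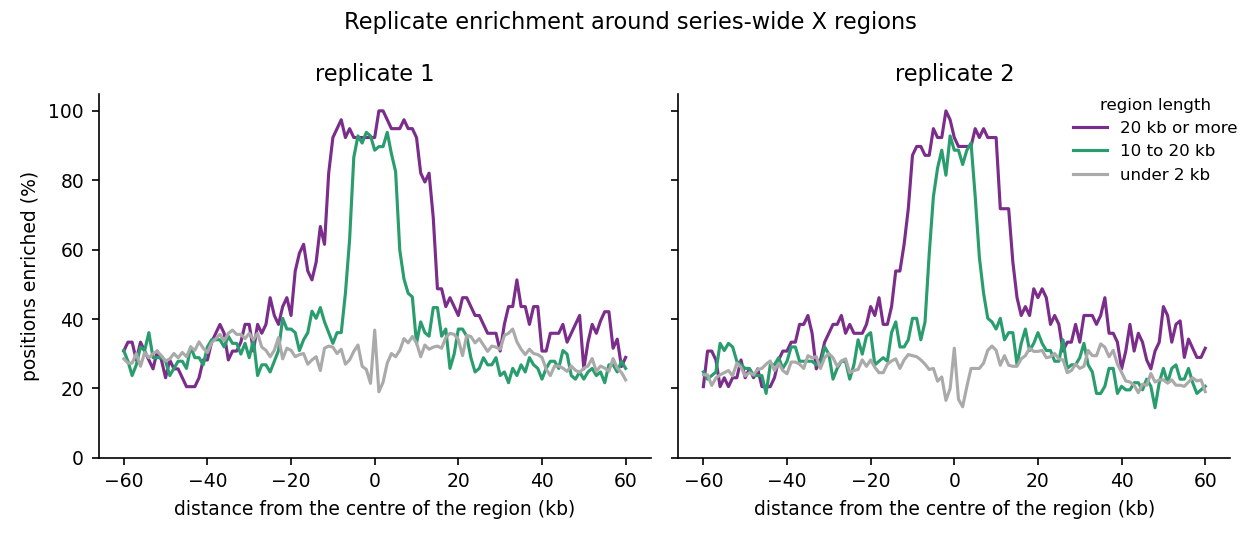
Share of positions enriched (percent, vertical axis) at each distance from the centre of series-wide X regions (kb, horizontal axis) in replicate 1 (left) and replicate 2 (right), for regions of 20 kb or more, of 10 to 20 kb and under 2 kb. At the centre 92.3% of the regions of 20 kb or more are enriched in each replicate, against 36.8% and 31.6% of those under 2 kb. For those under 2 kb the centre is above the positions 1 kb to either side (19.0 and 21.5% in replicate 1, 16.9 and 19.9% in replicate 2). It is not above some positions farther out, such as 37.1% at 33 kb in replicate 1 and 32.8% at 35 kb in replicate 2.

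Among X regions found in both replicates, the 10 longest spanned 33.3 to 85.0 kb each and held 9.09% of the enriched X bases of the series-wide list. The part enriched in both replicates was 76.7 to 99.4% of the region. The longest, from 19247182 to 19332174, had a score of 1.18 and was 1 region in replicate 1 and 3 in replicate 2. The second, from 12579812 to 12636226 (56.4 kb, score 1.44), was 1 region in replicate 1 and 4 in replicate 2, which covered 100% and 93.9% of it. The third ran from 18859194 to 18913872 (54.7 kb, score 0.99) and was covered over 88.8% in replicate 1 and 96.1% in replicate 2.

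A pair of these long regions lay side by side near the telomere end. The first of the pair ran from 1472312 to 1523008 (50.7 kb, score 1.48) and the other from 1528530 to 1563164 (34.6 kb, score 2.10), with a gap of 5521 bp between them. Replicate 2 had a single region over each and replicate 1 had 2 and 3. The latter had the highest score of any X region that overlapped both replicates. Together they lie in the most covered megabase of X.

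The rest of the 10 longest were from 581386 to 627260 (45.9 kb), 2528024 to 2571574 (43.6 kb), 11387036 to 11429998 (43.0 kb), 13111840 to 13151318 (39.5 kb) and 10606206 to 10639472 (33.3 kb). The regions from 2528024, from 11387036 and from 10606206 were each a single region in both replicates. The one from 13111840 was the most broken, with 2 regions covering 99.3% in replicate 1 and 7 covering 77.3% in replicate 2. Every bin of X held a region of at least 23.8 kb. The longest in bin 3, from 4076148 to 4099906 (23.8 kb, score 0.79), was the shortest of these and was enriched over 83.1% in replicate 1 and 87.3% in replicate 2, in 3 pieces each. In bin 8 it was the region from 15192850 to 15221682 (28.8 kb), which stood alone, with 158885 bp free of series-wide regions on its telomere side and 85609 bp on the other.

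The highest-scored X regions were mostly shorter. The 10 that overlapped both replicates had scores from 1.56 to 2.10 and lengths from 5.37 to 43.6 kb, and 7 of them were a single region in both replicates. Only the regions from 1528530 and from 2528024 (score 1.75) were also among the 10 longest. After the region from 1528530 came the one from 6762292 to 6776084 (13.8 kb, score 1.76), covered over 99.9% in replicate 1 and 88.8% in replicate 2. The shortest of the 10 ran from 17036980 to 17042352 (5.37 kb, score 1.66) and was covered over 100% and 85.8%. The region from 16227716 to 16234708 (6.99 kb, score 1.56) had the smallest share enriched in both, 74.4%.

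At the other extreme, the longest X regions that overlapped neither replicate were short and low-scored. The first 2 ran from 11893930 to 11897598 (3669 bp, score 0.43) and from 16610974 to 16614384 (3411 bp, score 0.41). The next 3 were 2365 to 2667 bp long with scores of 0.38 to 0.50. Longer regions had the higher scores on X, with Spearman's rho across regions of 0.74 on the series-wide list, 0.60 in replicate 1 and 0.82 in replicate 2; how the score is taken over a region is unknown, so this can follow from its definition.

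Compared with the autosomal arms, each also without the 2 Mb next to its centromere, X had the smallest covered share and the fewest long regions in each replicate. X was covered over 23.2% in replicate 1 against 24.7 to 29.9% on 2L, 2R, 3L and 3R, and over 21.2% in replicate 2 against 22.3 to 29.9%. On the series-wide list X was close to the lowest autosomal arm, 2L, at 26.20% against 26.27% covered. Regions of 10 kb or more there numbered 6.66 per Mb on X and 6.95 on 2L. The difference from the 4 arms together was -3.72 points in replicate 1 and -4.15 in replicate 2 (mean -3.93 ± 0.31, SD, n = 2; exact two-sided sign-flip permutation over the replicates, p = 0.5, the smallest 2 replicates can give). The density of regions of 10 kb or more was 4.70 and 4.26 per Mb on X and 6.12 and 6.16 elsewhere, a mean difference of -1.66 ± 0.34 per Mb (same exact test, p = 0.5). At 20 kb or more it was 1.37 and 0.88 per Mb on X against 2.09 and 1.78. The coverage difference was -2.06 points with the upper-scoring 50% of each list, and the density difference at 10 kb or more was -0.56 per Mb with regions joined at gaps under 5 kb. The labels give neither the read depth on X nor the sex of the larvae, so a difference in how readily regions are called on X and a difference in the mark itself cannot be told apart. The number of regions of any length did not go the same way in both replicates, with 50.3 per Mb on X against 51.5 in replicate 1 and 46.5 against 44.3 in replicate 2. Over its 10 bins X ran from 13.6 to 28.9% covered, a range of 15.3 points, where the 4 autosomal arms had ranges of 15.5 to 22.9 points over 10 bins each.

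The median score went the other way. X had the highest median score of the 5 arms in both replicates, at 0.73 against 0.64 to 0.68 in replicate 1 and at 0.74 against 0.69 to 0.71 in replicate 2. The gap was wider at the low end of the scores. At the upper end the replicates differed in direction. In replicate 1 the third quartile for X was 0.92, against 0.88 for the autosomal arms, and the 90th percentile 1.19 against 1.16. In replicate 2 the same values were 0.94 against 0.99 and 1.27 against 1.31. Regions under 2 kb had a median score of 0.59 on X and 0.51 on the autosomal arms in replicate 1, and 0.57 and 0.48 in replicate 2. From 2 to 5 kb the medians were 0.727 and 0.647 in replicate 1 and 0.749 and 0.681 in replicate 2. From 5 to 10 kb they were 0.914 and 0.864 in replicate 1 and 0.980 and 0.975 in replicate 2. From 10 to 20 kb the medians were 1.09 and 1.10 in replicate 1 and 1.17 and 1.14 in replicate 2, and at 20 kb or more they were 1.30 and 1.23, and 1.28 and 1.25. The lowest 10% of scores reached up to 0.49 on X and 0.42 on the autosomal arms in replicate 1, and 0.54 and 0.47 in replicate 2. The low end of the scores thus lay lower on the autosomal arms than on X in both replicates. With only the regions of any arm that reached the 10th percentile of the X scores of their list, a floor chosen after the data were seen, X was covered over 22.3% against 24.9% in replicate 1 and 20.4% against 23.6% in replicate 2, a mean difference of -2.87 ± 0.40 points. Above that floor X had more regions per Mb than the autosomal arms in both replicates, at 45.2 against 40.5 and 41.8 against 34.2. Without it the values were 50.3 against 51.5 and 46.5 against 44.3. Being set on X scores, the floor removes about 10% of X regions by definition. It kept only 78.7% of the autosomal regions in replicate 1 and 77.3% in replicate 2. The higher density of X above the floor thus follows at least in part from how the floor was chosen. So does the narrowing of the coverage difference, which was -3.93 points without the floor.

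**Figure D5:**
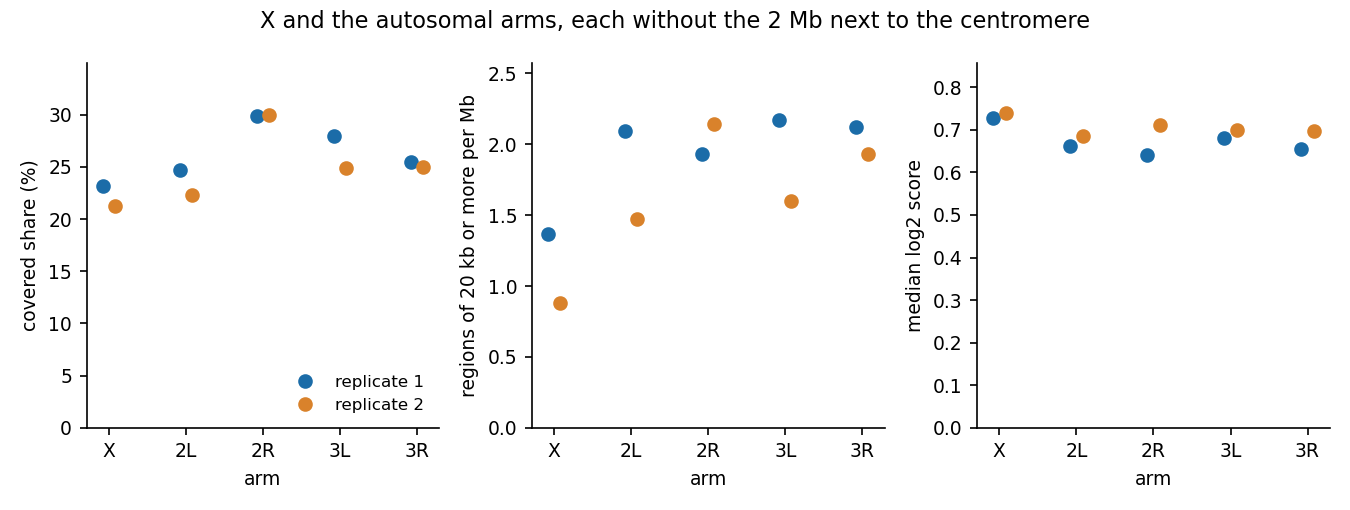
Covered share (percent, left), regions of 20 kb or more per Mb (middle) and median log2 score of the regions (right) for X and the 4 autosomal arms, 1 point for each replicate. X is lowest in the first 2 panels, with 23.2% and 21.2% covered and 1.37 and 0.88 long regions per Mb, and highest in the third, at 0.73 and 0.74.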

How the data were processed

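H4K20me1 ChIP-seq regions of 2 ChIP replicates were used; the 2 inputs have no region list here. Bowtie 0.12.7 is named in the submitters' processing notes, and the build is FlyBase release 5 per the file headers. The region caller, its threshold and the making of the series-wide list were not given in the sources used here. The deposited score was treated as log2, because 2 raised to the score, after subtracting a recurrent score, was a ratio of whole numbers (denominator at most 2000, relative tolerance 1e-11) for 77.1 to 95.1% of the regions of each list, and for at most 1.13% with a natural or base-10 logarithm. One region marked as depleted, in replicate 2, was left out. Autosomal arms were used without the 2 Mb next to the centromere. Regions were counted in the bin of their centre. Named are the 10 longest and 10 highest-scored regions overlapping both replicates, the longest in each bin, the 5 longest chains, empty stretches and unsupported regions, and those nearest the limit. Members, lists and rules were chosen with earlier results of these data known. With 1 condition, the only test is an exact sign-flip permutation over the replicates. Alternatives covered the limit, score, length, joining, overlap and list. Python 3.11.15, numpy 2.4.6, pandas 2.3.3 and scipy 1.17.1 were used. Interval functions were tested on simulated data, with every base count recovered in 20 of 20 pairs of lists.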

Additional observations from a re-analysis of the deposited data

How the results depend on the processing

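The score floor was chosen after the data were seen; the other alternatives were listed earlier. The lower coverage of X and its fewer regions of 10 kb or more kept their direction in the alternatives run. Coverage ranged from -4.69 points with 4 Mb left out to -2.06 with the upper-scoring 50%, and density from -1.95 per Mb with 4 Mb left out to -0.56 with joining at 5 kb. Regions of at least 2 kb and the score floor remove no region of 10 kb or more, so they say nothing about that density. With 2 replicates the exact sign-flip test cannot go below p = 0.5 in any setting. The difference between the centromere-side and telomere-side 50% of X turned to -0.71 points on all of X. It was 1.53 to 4.44 points with a replicate left out. With the upper-scoring 50% of each list, regions joined at gaps under 1 kb or 5 kb, regions of at least 2 kb, and the score floor, the Jaccard index was 51.4%, 59.2%, 64.5%, 59.0% and 55.8%, the median length 4224, 3592, 7884, 3733 and 2978 bp, and the median gap 8834, 6127, 15932, 5265 and 3897 bp. These follow from removing or joining regions. The Jaccard index was 57.2% on all of X and 56.6% with 4 Mb left out. Covered share was 20.8% on all of X, 17.5% with the upper-scoring 50%, 26.5% with joining at 5 kb and 19.8% for regions of at least 2 kb. The series-wide list gave 26.2% covered, with medians of 2975 bp for the length and 2611 bp for the gap. Regions overlapping both replicates numbered 307 with the upper-scoring 50%, 290 with joining at 5 kb, 458 with at least 50% covered by each, and 708 and 726 against a single replicate. Of the 79 alternative values 52 were counted as unchanged, 26 as moved and 1 as reversed. Unchanged values moved by less than the SD of the replicates or kept the direction of a tested difference. With 2 replicates, leaving 1 out always moves a mean by less than that SD. Those settings could therefore not be counted as moved, and the number of unchanged values does not measure how stable the results are. Unchanged counts stayed within 1.5 times the reported one. The Jaccard index has no SD, and all 7 of its alternatives were counted as moved, whatever the size of the change. No paired analysis was possible because only the ChIP samples have region lists here, so ChIP could not be paired with input; the comparison of X with the autosomal arms was made within each replicate.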

Other observations

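Outside the limit, 45 series-wide regions lay in the last 2 Mb of X, with 57 in replicate 1 and 33 in replicate 2, and the covered share there was 7.69% in replicate 1 and 5.11% in replicate 2. The highest score of any series-wide X region, 2.42, belonged to a region of 1019 bp from 16242830 to 16243848 that was enriched over its whole length in replicate 1 and not at all in replicate 2; it was picked for that score. It lies near the region from 16227716 to 16234708 named among the highest-scored. In replicate 1 the longest gap on X was 391 kb, from 9578946 to 9969651, where the series-wide list has regions.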
